A study of Mus musculus with 4 samples.

Results

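The p53 target genes described here are 10 genes chosen by name, Cdkn1a, Mdm2, Phlda3, Ccng1, Bax, Trp53inp1, Sesn1, Sesn2, Zmat3 and Aen, out of 45232 gene rows counted in each library. RNA was measured in mouse LSK cells, the lineage-negative, Kit-positive and Sca-1-positive fraction of blood-forming cells that holds the stem cells. They were GFP-positive descendants of long-term haematopoietic stem cells, sorted 3 months after transplantation from recipients of grafts with a scrambled control (Scr) or with miR-99, a microRNA, knocked down (miR-99 KD). There were 2 mice per group, and 2 libraries. GFP and the stem cell graft are common to both groups. The strain and age of the mice and the design of the knockdown construct were not given in the sources used here, nor which mouse gave which library, so p-values measure the spread between these libraries.

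p53 is a transcription factor held at a low level by the ubiquitin ligase Mdm2 and released when DNA is damaged or growth signals conflict. It binds response elements near its target genes and raises their RNA, and the products stop the cell cycle, repair DNA, change metabolism or kill the cell. In blood stem cells p53 is known for its part in quiescence and in the response to irradiation and transplantation. Mdm2 is itself a target, which closes a feedback loop.

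The mature microRNAs of the miR-99 family are shown first, because the knockdown is directed at miR-99. They come from RefSeq (GRCm38.p6), at chr16:77598940-77598961, chr17:17830194-17830215 and chr9:41531437-41531458, each on the plus strand. Capitals mark the seed, bases 2 to 8, which the 3 share.
miR-99a-5p: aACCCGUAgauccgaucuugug
miR-99b-5p: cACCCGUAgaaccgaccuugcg
miR-100-5p: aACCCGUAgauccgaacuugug
The match to this seed, TACGGGT, was searched on the transcript strand in the longest annotated 3′ untranslated region of each gene in GENCODE M21. It was present in 0 of the 10 p53 target genes and in 180 of 12817 genes tested (1.40%). This says only that these letters are not in those regions.

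The promoters of 3 genes are shown next, because they hold a match to the p53 response element. The element was taken as 2 half-sites of 10 bases that fit the published p53 consensus, 0 to 13 bases apart, with at most 1 mismatch over the 20 positions. The consensus reads the same on both strands, and no other motif was searched. In the 250 bases before each start site annotated by RefSeq (GRCm38.p6), 3 of the 8 p53 target genes with an entry (all but Trp53inp1 and Zmat3) held a match, against 96 of 10703 tested genes (0.897%). Such a match is a description of letters, and these genes were listed as p53 targets to begin with. Capitals mark the half-sites, each sequence is written in the direction of the gene, and 15 flanking bases are shown on each side.
Cdkn1a: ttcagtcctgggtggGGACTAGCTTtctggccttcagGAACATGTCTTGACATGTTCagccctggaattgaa
Ccng1: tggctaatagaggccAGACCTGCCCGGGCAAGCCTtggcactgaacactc
Bax: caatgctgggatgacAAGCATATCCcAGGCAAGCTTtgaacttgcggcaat
The Cdkn1a stretch is chr17:29090891-29090962 on the plus strand, before the more upstream of 2 annotated starts. It holds 3 half-sites between 73 and 32 bases before that start, which form 2 matching pairs. The Ccng1 stretch is chr11:40755447-40755496 on the minus strand, with half-sites 195 to 176 bases before the start. The Bax stretch is chr7:45467075-45467125 on the minus strand, with half-sites 212 to 192 bases before the start. A single half-site without mismatch was found in 6 of the 8 genes, also in Mdm2, Sesn1 and Aen, against 7.20% of the tested genes.

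Gene counts per library ran from 27295197 to 32350590. Below the gene rows, 3 of the 4 deposited tables carry pasted totals under library names whose numbers differ from the labels. The block with the Scr 1 total is named Scr-2, that with the miR-99 KD 1 total Zip99a-2 and that with the miR-99 KD 2 total Zip99a-1. Both miR-99 KD tables also carry a block named for a Scr library, Scr-2 in that of miR-99 KD 1 and Scr-1 in that of miR-99 KD 2. Among the Scr blocks is a total that matches none of the 4 tables. Groups and numbers here are those of the labels and column headers. The libraries also differed in markers of other cells, given here before the results. In miR-99 KD 1 the summed level of 10 neutrophil genes was 28939 CPM (read counts per 1000000, with library sizes scaled by TMM), against 5289 CPM in miR-99 KD 2 and 8257 and 6227 CPM in Scr. The 10 stem cell markers summed to 879 and 784 CPM in Scr against 303 and 411 CPM in miR-99 KD, and 8 of the 10 did not overlap, all lower (26.0% of all genes tested were lower without overlap). The 12 erythroid markers found summed to 11677 and 9654 CPM in Scr against 16220 and 16544 CPM in miR-99 KD, and 8 of the 12 were higher without overlap (24.5% of all genes). Of the sort markers, Kit stood at 1149 and 1280 CPM in Scr against 670 and 774 CPM in miR-99 KD, and Ly6a, which encodes Sca-1, at 46.5 and 22.8 CPM and at 12.4 and 22.3 CPM.

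**Figure D1:**
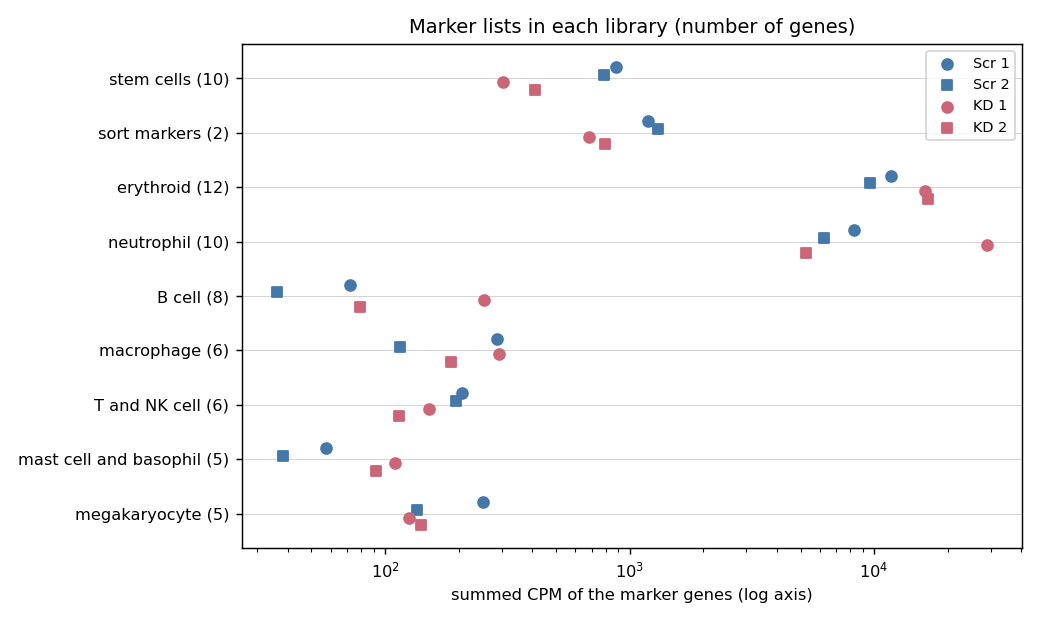
Summed CPM of the marker genes of each cell type (log axis), 1 point per library, with the number of genes in parentheses. The stem cell markers are lower and the erythroid markers higher in both miR-99 KD (KD) libraries, and the neutrophil markers stand at 28939 CPM in miR-99 KD 1.

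The p53 target genes did not move as one. The groups did not overlap in 7 of the 10, where 50.5% of 15320 genes tested did not. In 6 (Mdm2, Phlda3, Ccng1, Bax, Zmat3 and Aen) the lower miR-99 KD library was above the higher Scr library, where 24.5% of all genes were so. In 1, Sesn1, the order was opposite, where 26.0% of all genes were so, and Cdkn1a, Trp53inp1 and Sesn2 overlapped. Phlda3 and Zmat3 had the largest differences, 2.91-fold and 2.32-fold higher in miR-99 KD, followed by Ccng1 at 1.71-fold. All 10 passed the filter on low counts, and their median log2 difference was 0.27, against 0.02 over all genes tested. Without miR-99 KD 1 these medians were 0.14 and -0.05. The median deviation of the 10 genes from their own means, on the log2 scale, was -0.12 and -0.11 for the Scr libraries, and 0.25 for the first and 0.0043 for the second miR-99 KD library.

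Errors of log2 differences are standard errors (SE) of the fit, with n = 2 libraries per group. None of the 10 passed the edgeR quasi-likelihood test after Benjamini-Hochberg adjustment over all genes, in which 0% of genes passed. The unadjusted edgeR p was under 0.05 for 4 of them (15.6% of all genes), of which Phlda3, Ccng1 and Zmat3 were higher (5.97%) and Sesn1 lower (9.63%). DESeq2 called 3 of the 10 at an adjusted p under 0.05, where it called 6.85% of the genes it gave an adjusted p. Phlda3 and Ccng1 were called higher (1.96% of genes) and Sesn1 lower (4.89%). These counts changed when single libraries were left out. Without Scr 2 only Phlda3 had an unadjusted edgeR p under 0.05 (4.73% of all genes), and DESeq2 called 0 of the 10 (0.202% of all genes). DESeq2 called Ccng1 alone without Scr 1 (1.07% of all genes), Phlda3 alone without miR-99 KD 2 (6.19%), and the same 3 genes without miR-99 KD 1 (10.6%). With the replicate number as a block it called Phlda3 alone (2.95%). The share of all genes called thus moved with the same settings. The 6 genes above became 9 without miR-99 KD 2 (37.8% of all genes), and the 1 below became 2, with Cdkn1a, without miR-99 KD 1 (41.3% of all genes). With libraries scaled by their totals alone, 4 genes lay above (18.0% of all genes), without Bax and Aen.

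**Figure D2:**
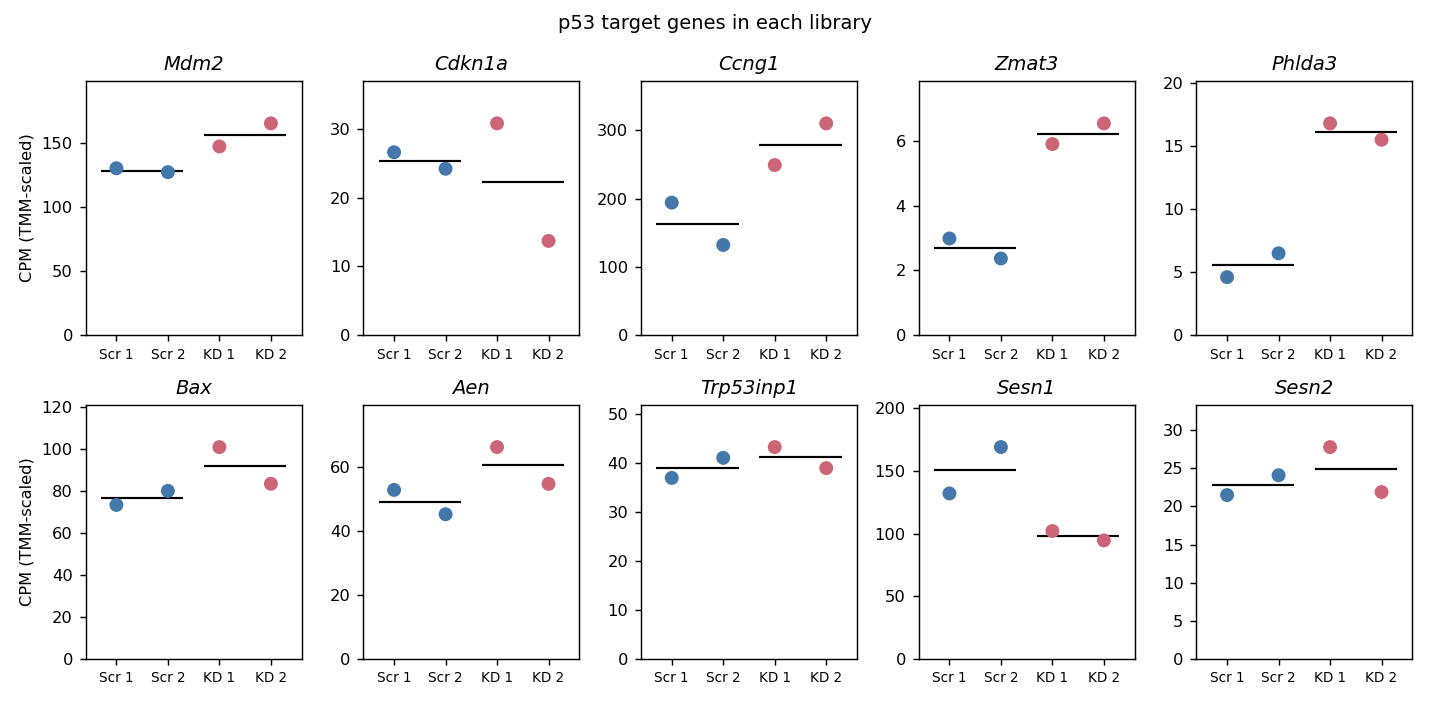
Level of each p53 target gene in CPM (linear axis from 0), 1 point per library, blue for Scr and red for miR-99 KD (KD), with a bar at the mean of each pair. The groups do not overlap for Mdm2, Ccng1, Zmat3, Phlda3, Bax, Aen and Sesn1, while the 2 miR-99 KD libraries of Cdkn1a stand apart at 30.8 and 13.7 CPM.

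The feedback and arrest genes differed among themselves. Mdm2, the ligase that marks p53 for breakdown, stood at 130 and 127 CPM in Scr against 147 and 165 CPM in miR-99 KD. The Scr libraries were close together and both miR-99 KD libraries were higher, with a difference of 0.28 ± 0.13 (SE) on the log2 scale and an edgeR adjusted p of 0.373. Cdkn1a, which encodes the cell cycle inhibitor p21 and has a match to the response element shown above, stood at 26.6 and 24.2 CPM in Scr. In miR-99 KD it stood at 30.8 and 13.7 CPM, so that 1 library was above and the other below both Scr libraries. Its log2 difference was -0.19 ± 0.40 (SE) with an edgeR adjusted p of 0.847, and the 95% interval of -1.20 to 0.82 spans differences in both directions. Without miR-99 KD 1 the difference was -0.89, and without miR-99 KD 2 it was 0.28. Of the marker lists, the summed neutrophil list was also above both Scr libraries in miR-99 KD 1 and below both in miR-99 KD 2. Of its genes only Mpo, Elane, Prtn3 and Ctsg were below both Scr libraries in miR-99 KD 2, and the others lay between them. The part of this list in the Cdkn1a values was not tested.

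Ccng1, which encodes cyclin G1, a partner of the phosphatase PP2A that acts on Mdm2, stood at 194 and 132 CPM in Scr against 249 and 310 CPM in miR-99 KD. Both miR-99 KD libraries were higher, but in CPM the Scr libraries lay about as far apart as the miR-99 KD libraries did. On the log2 scale the Scr libraries lay further apart. Their deviations from the mean of the gene were -0.12 and -0.67, against 0.24 and 0.55 for miR-99 KD. The log2 difference was 0.77 ± 0.23 (SE), with an edgeR adjusted p of 0.254 and a DESeq2 adjusted p of 0.0299. The DESeq2 call was lost with the replicate number as a block and without Scr 2 or miR-99 KD 2. The difference was 1.05 without Scr 1 and 0.50 without Scr 2, with adjusted p over the alternatives from 0.00795 to 0.919.

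Zmat3, an RNA-binding zinc finger protein that acts on RNA stability and splicing, had 100 and 69 counts in Scr and 156 and 174 counts in miR-99 KD, which is 2.99 and 2.37 CPM against 5.91 and 6.55 CPM. The groups were well apart, with a difference of 1.22 ± 0.34 (SE) on the log2 scale, an edgeR adjusted p of 0.240 and a DESeq2 adjusted p of 0.109. Leaving out each library gave 1.04 to 1.36.

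Phlda3, a small pleckstrin-homology protein that competes with Akt for membrane lipids and so limits Akt, showed the widest separation. It had 154 and 189 counts in Scr and 442 and 411 counts in miR-99 KD, or 4.60 and 6.49 CPM against 16.8 and 15.5 CPM. Both miR-99 KD libraries were far above either Scr library. The log2 difference was 1.54 ± 0.28 (SE), with a 95% interval of 0.82 to 2.26. Its edgeR adjusted p was 0.199, its DESeq2 adjusted p 0.00148 and its limma-voom adjusted p 0.195, and over the alternatives the adjusted p ran from 0.00148 to 0.919. By unadjusted edgeR p it ranked 190 of 15320 genes. Leaving out each library gave log2 differences of 1.28 to 1.79. No match to the p53 element was found in the 250 bases before its start, which says nothing about p53 itself.

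The genes of cell death had small differences. Bax, which opens the outer mitochondrial membrane, stood at 73.4 and 80.1 CPM in Scr against 101 and 83.5 CPM in miR-99 KD. Aen, a nuclease that takes part in apoptosis after DNA damage, stood at 52.8 and 45.2 CPM in Scr against 66.2 and 54.7 CPM in miR-99 KD. In both genes miR-99 KD 1 was the highest library and miR-99 KD 2 lay just above the higher Scr library. The log2 differences were 0.26 ± 0.16 for Bax and 0.30 ± 0.18 for Aen (SE), with edgeR adjusted p of 0.461 and 0.460. They were 0.12 and 0.16 when miR-99 KD 1 was left out. Trp53inp1, a stress protein that promotes p53-dependent death and autophagy, stood at 37.0 and 41.1 CPM in Scr against 43.3 and 39.0 CPM in miR-99 KD. These values interleaved, and the 95% interval of the log2 difference, -0.35 to 0.51, leaves room for a modest change either way.

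The sestrins, which restrain mTORC1 when cells are stressed or short of amino acids, stood apart from each other. Sesn1 was at 132 and 169 CPM in Scr against 102 and 94.5 CPM in miR-99 KD, the only gene of the 10 with both miR-99 KD libraries lower. The log2 difference was -0.62 ± 0.17 (SE), with a 95% interval of -1.05 to -0.20, an edgeR adjusted p of 0.233 and a DESeq2 adjusted p of 0.0394. That DESeq2 call was lost with the replicate number as a block, when every gene with a count was kept, and when Scr 1, Scr 2 or miR-99 KD 2 was left out, and over the alternatives the adjusted p ran from 0.0288 to 0.919. Sesn2 was at 21.5 and 24.1 CPM in Scr against 27.8 and 21.9 CPM in miR-99 KD. The groups overlapped, with a difference of 0.12 ± 0.21 (SE) on the log2 scale, an edgeR adjusted p of 0.809 and a 95% interval of -0.42 to 0.67. The difference between Sesn1 and Sesn2 was not itself tested.

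**Figure D3:**
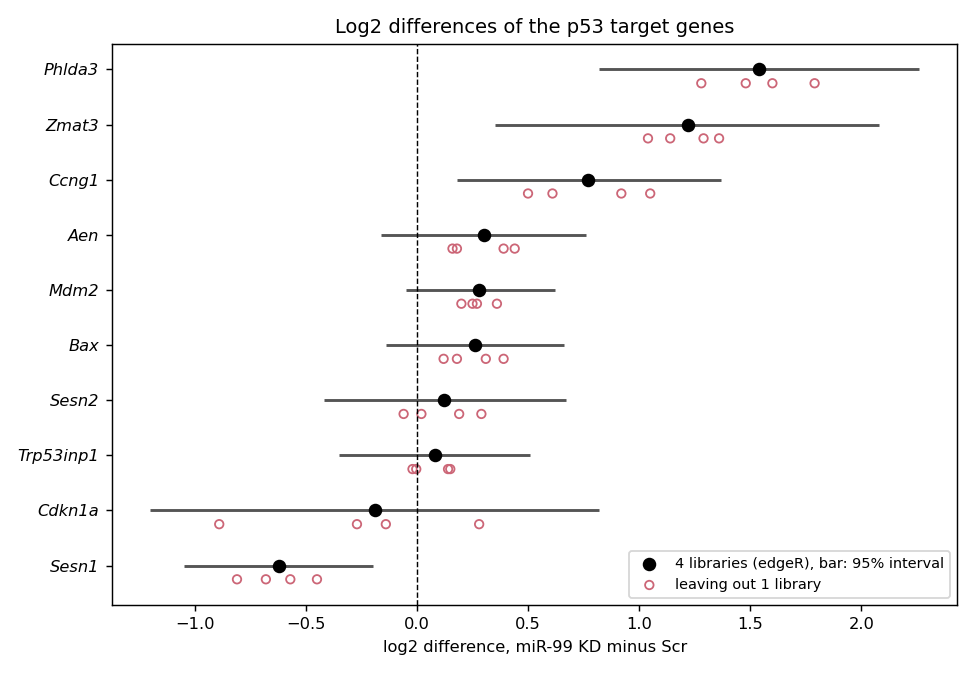
Log2 difference of each p53 target gene, miR-99 KD minus Scr, from the edgeR fit over 4 libraries (black, bar for the 95% interval) and with each library left out (open red circles). The intervals of Phlda3, Zmat3 and Ccng1 lie above 0 and that of Sesn1 below, and the open circles of Cdkn1a run from -0.89 to 0.28.

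Levels were compared between genes only per length, as mean CPM per kilobase of annotated exons. In GENCODE M21, exons of Bax overlap Gm45808 on the same strand and exons of Cdkn1a overlap AC167363.2 on the opposite strand. The effect of these overlaps on the levels was not tested. In Scr the order was Bax at 48.7, Ccng1 at 46.5, Sesn1 at 37.9, Mdm2 at 25.2, Aen at 8.45, Cdkn1a at 7.15, Sesn2 at 6.57, Trp53inp1 at 6.03, Phlda3 at 3.56 and Zmat3 at 0.234. The library ranges of neighbours in that order overlapped for Bax and Ccng1, Ccng1 and Sesn1, Cdkn1a and Sesn2, and Sesn2 and Trp53inp1. In miR-99 KD Ccng1 came first at 79.5, then Bax at 58.5, Mdm2 at 30.7, Sesn1 at 24.6, Aen at 10.4, Phlda3 at 10.3, Sesn2 at 7.16, Trp53inp1 at 6.36, Cdkn1a at 6.27 and Zmat3 at 0.545. Neighbours overlapped there for Aen and Phlda3, Sesn2 and Trp53inp1, and Trp53inp1 and Cdkn1a.

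Of 18 regulators of p53, 17 passed the filter, with a median log2 difference of 0.15. The groups did not overlap in 8 that were higher and 2 that were lower, against 24.5% and 26.0% of all genes, and 7 overlapped. At an unadjusted edgeR p under 0.05, 2 were higher and 1 lower, where 5.97% and 9.63% of all genes were, and 0 passed after adjustment. Trp53, which encodes p53 itself, stood at 288 and 290 CPM in Scr against 329 and 378 CPM in miR-99 KD, with a difference of 0.29 ± 0.14 (SE) on the log2 scale and an edgeR adjusted p of 0.375. Both miR-99 KD libraries were higher, as with Mdm2. Mdm4, the inhibitory partner of Mdm2, overlapped at 115 and 125 CPM against 117 and 137 CPM, and so did the phosphatase Ppm1d, at 48.7 and 51.9 CPM against 52.0 and 42.5 CPM. Cdkn2a, whose alternative product p19Arf blocks Mdm2, had 0 counts in all 4 libraries. The checkpoint kinases Chek1 and Chek2 were higher, Chek1 at 51.8 and 59.8 CPM against 75.5 and 87.5 CPM and Chek2 at 70.1 and 75.3 CPM against 90.5 and 114 CPM. Trp53bp1, which encodes the double-strand break protein 53BP1, was lower, at 57.9 and 72.4 CPM in Scr against 36.9 and 26.1 CPM in miR-99 KD. Its log2 difference was -1.05 ± 0.24 (SE), with an edgeR adjusted p of 0.224 and a DESeq2 adjusted p of 0.00609, the only regulator DESeq2 called. The acetyltransferase gene Ep300 was at 86.9 and 89.8 CPM against 104 and 122 CPM.

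Of 34 other p53 targets, 33 passed the filter, and their median log2 difference was 0.04. The groups did not overlap in 8 that were higher and in 6 that were lower in miR-99 KD, against 24.5% and 26.0% of all genes, and 19 overlapped. edgeR counted 2 higher and 2 lower at an unadjusted p under 0.05, where 5.97% and 9.63% of all genes were, and 0 after adjustment. DESeq2 called 2 higher and 1 lower, where it called 1.96% and 4.89% of all genes. Pmaip1, which encodes the BH3-only death protein Noxa, stood at 3.62 and 3.57 CPM in Scr against 12.4 and 7.68 CPM in miR-99 KD, a difference of 1.48 ± 0.35 (SE) on the log2 scale with an edgeR adjusted p of 0.227 and a DESeq2 adjusted p of 0.0259. Of the 11 targets of cell death, 2 were higher and 2 lower without overlap. Bbc3, which encodes the BH3-only protein Puma, was lower, at 10 and 11.8 CPM against 8.07 and 6.66 CPM. Perp was lower too, at 5.29 and 4.39 CPM against 2.88 and 2.22 CPM. Neither was called by edgeR or DESeq2. Dram1, an autophagy gene, was 24.9 CPM in miR-99 KD 1 and 6.21 CPM in miR-99 KD 2, against 9.32 and 5.90 CPM in Scr.

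Among the targets of arrest and repair, Gtse1, a mitotic protein that counters p53, stood at 67.4 and 72.8 CPM in Scr against 114 and 102 CPM in miR-99 KD, with an edgeR adjusted p of 0.221 and a DESeq2 adjusted p of 0.0132. Xpc, which recognises DNA damage for excision repair, was at 93.0 and 121 CPM against 70.3 and 41.8 CPM, with an edgeR adjusted p of 0.260 and a DESeq2 adjusted p of 0.0431. Gadd45a, a stress protein that slows the cell cycle, was at 45.8 and 38.4 CPM against 78.0 and 46.5 CPM. Trp53cor1, the long non-coding RNA next to Cdkn1a, was near the detection limit, with 11 and 48 counts in Scr against 14 and 1 in miR-99 KD. Of the targets of metabolism and signalling, Ak1, an adenylate kinase, was at 7.92 and 6.45 CPM against 4.28 and 3.65 CPM. Pml, which organises nuclear bodies, was at 202 and 172 CPM against 214 and 263 CPM. The stress gene Ddit4, an mTORC1 inhibitor like the sestrins, was at 4.12 and 3.74 CPM against 8.38 and 4.18 CPM, and the ubiquitin ligase gene Fbxw7 at 22.2 and 20.9 CPM against 26.4 and 25.9 CPM. None of these last 4 passed either test.

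**Figure D4:**
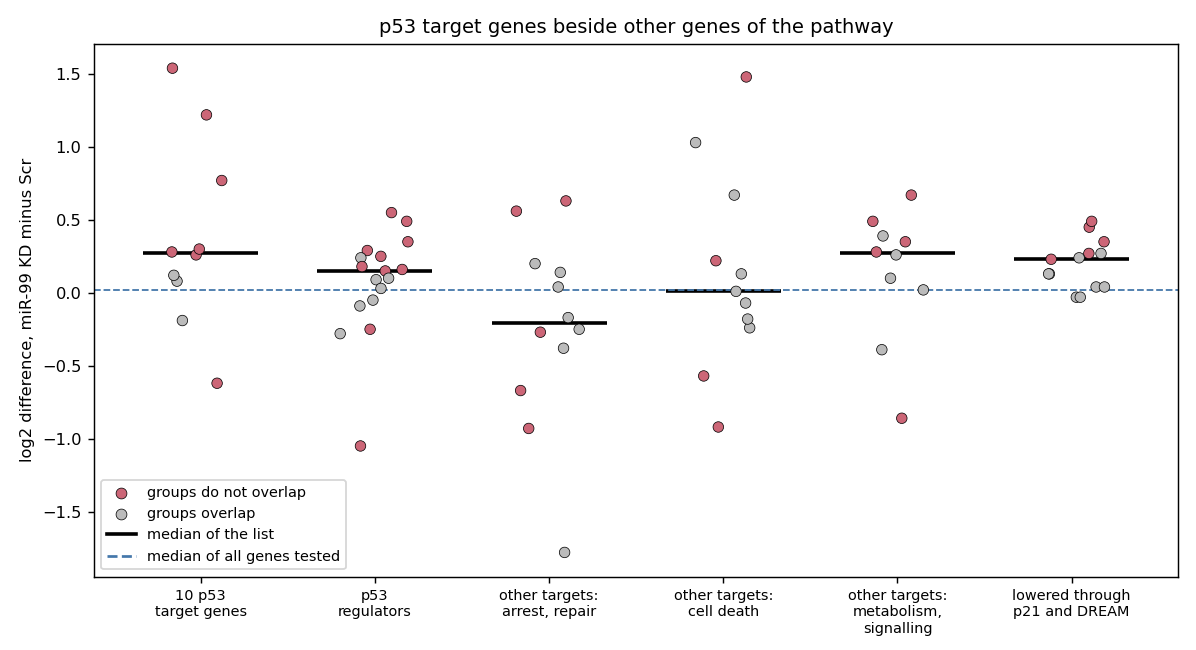
Log2 difference of each tested gene, miR-99 KD minus Scr, for the 10 p53 target genes and 5 other lists of the pathway, with a black bar at each list's median and a dashed line at the median of all genes tested (0.02). Red points are genes whose groups do not overlap, and each list holds genes on both sides of 0.

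Genes that p53 lowers through p21 and the DREAM repressor, mostly of mitosis, had a median log2 difference of 0.23 over 13 genes. In 5 both miR-99 KD libraries were higher and in 0 lower, where 24.5% and 26.0% of all genes were. Cdk1, the kinase that drives mitosis, stood at 188 and 184 CPM in Scr against 229 and 280 CPM in miR-99 KD, and Mki67, a marker of dividing cells, at 405 and 325 CPM and at 480 and 546 CPM. Aurka, a spindle kinase, was at 129 and 153 CPM against 190 and 171 CPM, and the cyclin gene Ccnb2 at 270 and 281 CPM against 339 and 325 CPM. edgeR and DESeq2 called 0 of the 13 after adjustment. At an unadjusted edgeR p under 0.05, 2 were higher, Cdk1 and Mki67, and 0 lower, where 5.97% and 9.63% of all genes were.

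The stem cell and erythroid markers separated the same groups as Phlda3, Zmat3, Ccng1 and Sesn1 did, with the summed levels given above. In bulk RNA, a different mix of cells and a different RNA level per cell cannot be told apart. Of the remaining lists, the 8 B cell genes summed to 71.9 and 36.3 CPM in Scr against 254 and 79.1 CPM in miR-99 KD, with 5 of 8 higher without overlap (24.5% of all genes). The 5 mast cell and basophil genes summed to 57.1 and 38.4 CPM against 110 and 92.1 CPM, with 1 of 5 higher without overlap and Prss34 at 0 counts in Scr 2 and miR-99 KD 2. The 5 megakaryocyte genes summed to 251 and 135 CPM against 125 and 140 CPM, and the 6 macrophage genes to 288 and 115 CPM against 293 and 186 CPM. The 6 T and NK cell genes summed to 207 and 195 CPM against 151 and 114 CPM, nearly all from Nkg7, and Cd3e, Cd3g and Cd8a were at 0 counts in at least 1 library. The part of these lists in the p53 target values was not tested.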

How the data were processed

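RNA was measured in 2 Scr and 2 miR-99 KD libraries. The authors deposited raw counts of reads per Ensembl gene, separately for each library. SMARTer amplification was used per the labels' protocols. STAR, Picard, HTSeq and DESeq2, with build mm9, are named in the submitters' processing notes, and versions, annotation release and use of strand were not given in the sources used here. PCR copies may be counted, since no molecular identifiers are named.

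Symbols matched 44585 of 45232 gene rows. Rows that name no gene were left out of every step: reads with no feature made up 8.31% to 13.8% of all reads and reads with several alignments 18.0% to 21.9%. Exon lengths and 3′ untranslated regions (at least 50 bases) came from GENCODE M21, a later build, and none of its coordinates are printed.

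The main test was edgeR 4.0.16 (R 4.3.3) with filterByExpr, TMM and Benjamini-Hochberg adjustment at 0.05. It was also run on simulated data in which every gene was given the same dispersion between libraries. That run does not measure how the test performs on these libraries. Alternatives were DESeq2 1.42.0 on the same genes, limma-voom (limma 3.58.1), other scalings and filters, a replicate block and leaving out each library. DESeq2 gave no adjusted p for 2377 genes. Named genes are the 10 targets, Trp53, Mdm4, Cdkn2a and Ppm1d, and up to 4 genes of each other list, those with the smallest edgeR p. Further genes named among the other observations were chosen after their values were seen. Members and lists were chosen with earlier results of these data known.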

Additional observations from a re-analysis of the deposited data

How the results depend on the processing

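The counts of genes above and below, of DESeq2 calls and of unadjusted p for the 10 genes were alternatives chosen after seeing the data, and unless stated the cause of a change was not tested. edgeR called 0 of 15320 genes, 887 passed with DESeq2, 1064 without a filter, and 0 to 1013 passed without each library (1013 without miR-99 KD 1, 437 without miR-99 KD 2). Of the 10 p53 target genes it called 0, with 3 called by DESeq2, 3 without a filter (Phlda3, Ccng1 and Sesn1) and 0 to 1 without each library, the 1 being Phlda3 without miR-99 KD 1. Their median log2 difference of 0.27 ran from 0.14 to 0.34 without each library, the 0.14 without miR-99 KD 1, where the median of all genes ran from -0.05 to 0.03. The 6 genes above were 4 with total counts scaling and 6 to 9 without each library, and the 1 below was 1 to 2. The 4 genes at an unadjusted edgeR p under 0.05 were 1 to 5 without each library. DESeq2 called 3 of the 10, 2 when every gene with a count was kept, and 0 to 3 without each library, where it called 6.85%, 6.12% and 0.202% to 10.6% of all genes. A lone library was taken to vary as the opposite pair does. Of the 10 genes' own log2 differences, Trp53inp1 turned to -0.01 with total counts scaling and ran from -0.02 to 0.15 without each library (-0.02 without Scr 1, -0.0032 without miR-99 KD 1). Sesn2 ran from -0.06 without miR-99 KD 1 to 0.29, and Cdkn1a from -0.89 to 0.28 without miR-99 KD 2. The filter at 10 CPM in 2 libraries removed Zmat3 and gives no value for it. With total counts scaling 79.1% of genes at an unadjusted p under 0.05 were lower, against 61.7%.

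Deviations of libraries with the same number correlated at 0.095, over only 2 pairs, and the numbers are not treated as a pairing. A fit with the replicate block left edgeR at 0 genes, DESeq2 called 1 of the 10 (Phlda3) and 2.95% of all genes, and the edgeR log2 differences were 1.56 for Phlda3, 0.79 for Ccng1, 1.22 for Zmat3 and -0.61 for Sesn1. Depth limits Zmat3 most, at 69 to 174 counts.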

Other observations

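The p53 targets differed more between the miR-99 KD libraries than between the Scr libraries. Over the 10 genes and the 33 other targets tested, 14 of 43 (32.6%) were more than 1.5-fold higher in miR-99 KD 1 than in miR-99 KD 2, against 15.7% of all genes tested with counts in both. They were Cdkn1a, Btg2, Gadd45a, Sfn, Xpc, Trp53cor1, Pmaip1, Fas, Apaf1, Eda2r, Dram1, Tigar, Ddit4 and Gdf15, named after their values were seen. Of the 10 genes only Cdkn1a was among them. Some of the others had few counts in miR-99 KD 1 and miR-99 KD 2, such as Trp53cor1 at 14 and 1 counts and Sfn at 30 and 19 counts. Fas, a death receptor, stood at 4.25 and 0.866 CPM in the 2 miR-99 KD libraries, Gdf15, a stress-induced cytokine, at 5.69 and 0.640 CPM, and Btg2, an antiproliferative gene, at 96.7 and 47.0 CPM. Another 4 (9.30%), Plk2, Polk, Ercc5 and Tnfrsf10b, also named after their values were seen, were more than 1.5-fold higher in miR-99 KD 2, against 13.4% of all genes. Between the Scr libraries 3 of the 43 were more than 1.5-fold higher in Scr 1 (6.98%) and 2 in Scr 2 (4.65%), against 14.1% and 5.54% of all genes. Of the 10 genes, all but Cdkn1a differed by less than 1.5-fold within both groups. The neutrophil markers were highest in miR-99 KD 1, and their part in these values was not tested.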
